A study of Mus musculus with 6 samples.

Results

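The 10 genes described here, followed in aortic RNA of mice, are grouped as white fat cell genes, though most are known from brown fat cells too. They are the hormones and secreted proteins Adipoq, Lep, Retn and Cfd, the lipid droplet proteins Plin1, Plin4 and Cidec, the fatty acid carrier Fabp4, and the lipases Lipe and Pnpla2. The genes were chosen by name, and 10 of 10 were found once each among the 29752 genes of every file. Wild-type C57BL/6 mice (3 libraries, called WT1 to WT3) were compared with C57BL/6 mice heterozygous for Palmd, labelled PALMD+/- (3 libraries, Het1 to Het3). All were aged 15 weeks, and a normal diet had been fed for 7 weeks, starting at 8 weeks of age. How Palmd was altered, and how much surrounding tissue stayed on the vessel, is not in the labels. Whether a library stands for 1 animal is not given either, so p-values measure only the spread between these libraries, which may be technical.

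The aorta is wrapped in perivascular fat, and a piece of aorta taken for RNA can carry some of it. In a fat cell the triglyceride droplet is coated by perilipins, which keep lipases away from the lipid until a hormonal signal arrives. Adipose triglyceride lipase (Pnpla2) then makes the first cut and hormone-sensitive lipase (Lipe) the next, and Fabp4 carries the released fatty acids through the cytosol. Adipocytes also secrete adiponectin (Adipoq), leptin (Lep), which reports fat stores to the brain, resistin (Retn) and the complement protease adipsin (Cfd). In bulk tissue, fewer fat cells and less RNA per fat cell cannot be told apart.

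Levels are given in FPKM, a read count divided by the length of the gene and by the reads of the library, which were 17283950 to 18372130. Palmd was at 5.49, 7.88 and 10.1 FPKM in WT1, WT2 and WT3 and at 5.31, 7.19 and 6.21 FPKM in Het1, Het2 and Het3. The groups overlapped, so this level does not check the genotype labels. Het2 stood apart, with a mean correlation of 0.930 with the other libraries, where these had 0.960 to 0.971, and the comparison of groups is therefore given with and without it.

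Adipocyte transcripts were plentiful in every library, and the extremes of their level lay in 1 genotype. The 10 genes together made up 0.649%, 0.939% and 1.36% of all FPKM in WT1, WT2 and WT3, and 0.557%, 1.70% and 0.723% in Het1, Het2 and Het3. Het2 was the highest library for 10 of the 10 genes and Het1 the lowest for 9 (for Plin4 it was Het3). By mean level, 9 of the genes ranked between the 92.2 and the 99.9 percentile of the 12620 tested genes, and Lep at the 67.4 percentile.

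**Figure D1:**
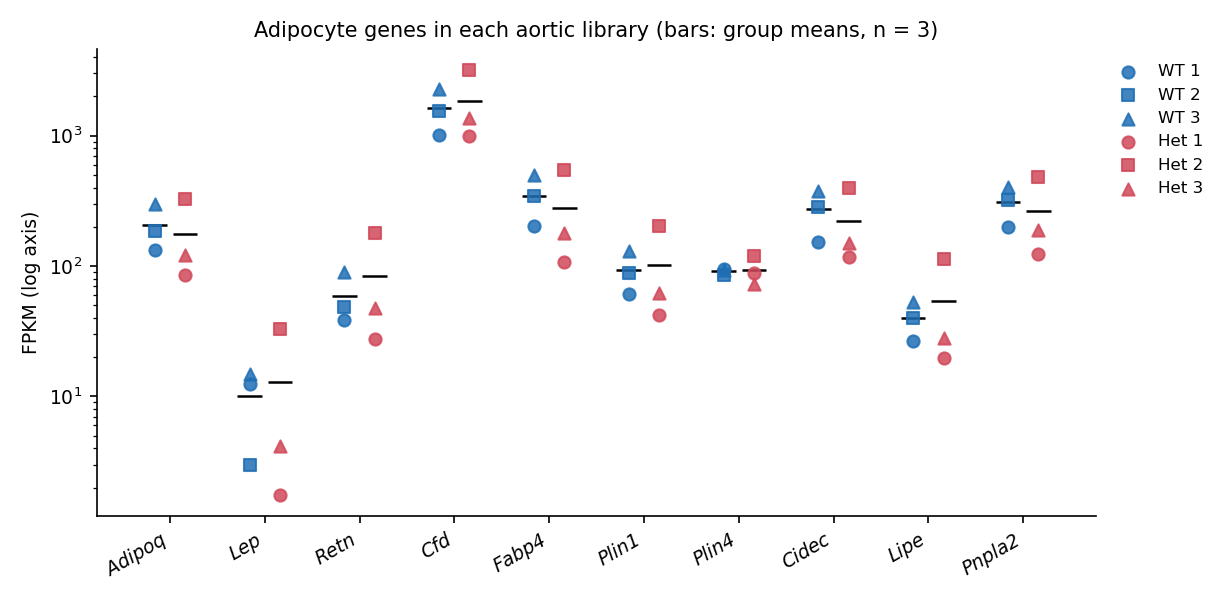
FPKM of the 10 adipocyte genes on a log axis, with 1 point per library, wild type (WT) in blue and heterozygote (Het) in red, and group means as bars (n = 3). Het 2 is at the top for every gene, and Plin4, between 73.0 and 119 FPKM, spans the narrowest range.

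The stretch before the start of transcription is shown for 3 members: Adipoq, which varied over the libraries as most members did, and Lep and Plin4, which varied least like the rest. Sequences are from RefSeq on build GRCm38.p6, 250 bases long, 5′ to 3′ on the strand of the gene, and end just before its RefSeq start. Capitals mark matches on either strand to the motifs named after them.
Adipoq, chr16:23146286-23146535, plus strand: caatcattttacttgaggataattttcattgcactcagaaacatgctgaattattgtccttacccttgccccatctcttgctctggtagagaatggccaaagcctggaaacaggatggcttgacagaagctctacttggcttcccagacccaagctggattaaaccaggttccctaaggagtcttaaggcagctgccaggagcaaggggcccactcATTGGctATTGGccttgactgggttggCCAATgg
Lep, chr6:29059971-29060220, plus strand: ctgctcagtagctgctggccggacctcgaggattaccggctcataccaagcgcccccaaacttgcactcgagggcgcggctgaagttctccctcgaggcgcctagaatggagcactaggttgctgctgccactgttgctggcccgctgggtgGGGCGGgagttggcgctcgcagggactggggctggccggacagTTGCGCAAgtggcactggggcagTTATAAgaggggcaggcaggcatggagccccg
Plin4, chr17:56109783-56110032, minus strand: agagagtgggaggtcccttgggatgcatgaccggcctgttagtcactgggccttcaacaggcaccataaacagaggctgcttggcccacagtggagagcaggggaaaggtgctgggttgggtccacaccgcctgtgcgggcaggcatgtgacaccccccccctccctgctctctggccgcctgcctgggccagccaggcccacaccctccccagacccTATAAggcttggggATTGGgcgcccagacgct

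RefSeq windows were found for 9 of the 10 members, 11 in all, and 7 motifs were searched in them as exact letters on both strands. The C/EBP palindrome TTGCGCAA, named for a family of fat cell transcription factors, was in the window of Lep, beginning 55 bases before the start, and in no other member's. Of the 32817 windows of all genes, 0.165% hold it. The TATA core TATAA was in the windows of Lep and Plin4, on the gene's strand 31 and 32 bases before the start, and in no other member's, while 22.8% of all windows hold it. In Lep it overlaps a match on the opposite strand. The CCAAT box was in Adipoq, 3 times, and in Plin4 (33.8% of all windows). The GC box GGGCGG was in Lep, Lipe and Pnpla2 (32.7%), and the E-box CACGTG in 1 of the 2 windows of Lipe (6.02%). The nuclear receptor half-site AGGTCA (14.0% of all windows), and so the DR1 element of PPAR and RXR, which is 2 such half-sites with 1 base between, were in 0 of the 11. A match is a description, not a site, and no match says only that these letters are not in this window. TATAA was chosen in place of a longer TATA motif after the windows were seen.

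Among the hormones, adiponectin RNA was at 133, 187 and 299 FPKM in WT1, WT2 and WT3 and at 85.3, 325 and 122 FPKM in Het1, Het2 and Het3. Its lowest and its highest value were both in heterozygotes, and the groups overlapped. Group means were 206 ± 84.6 and 177 ± 129.0 FPKM (SD, n = 3). Heterozygotes minus wild type came to -0.37 on the log2 scale (SE 0.54, 95% interval -1.67 to 0.92), with an adjusted p of 0.953 by limma. Adipoq (ENSMUSG00000022878) lies on GRCm38 chromosome 16, 23146536 to 23158028, on the plus strand.

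Leptin had the widest range of the 10 genes. Its RNA was at 12.5, 3.00 and 14.9 FPKM in WT1, WT2 and WT3 and at 1.76, 32.8 and 4.13 FPKM in Het1, Het2 and Het3. The highest library held 18.6 times the level of the lowest, on 108 to 1902 reads per library. Het2 alone was above all wild-type libraries, while Het1 was below all of them. Group means were 10.1 ± 6.29 and 12.9 ± 17.3 FPKM (SD, n = 3), higher in heterozygotes, but the log2 difference was -0.28 (SE 0.99, limma adjusted p = 0.986), lower in heterozygotes. The 95% interval of its fold ran from 0.158 to 4.29. Lep (ENSMUSG00000059201) lies on chromosome 6, 29060220 to 29073877, on the plus strand.

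Resistin RNA was at 38.4, 48.4 and 90.7 FPKM in WT1, WT2 and WT3 and at 27.6, 178 and 47.6 FPKM in Het1, Het2 and Het3. The heterozygotes again reached past the wild-type values on both sides, and the log2 difference was 0.16 (SE 0.69, limma adjusted p = 0.988). Adipsin, the most abundant member on the deposited FPKM scale, was at 1006, 1557 and 2288 FPKM in WT1, WT2 and WT3 and at 999, 3161 and 1371 FPKM in Het1, Het2 and Het3. Het1 was just below WT1 and Het2 above WT3, so the groups overlapped here too. Cfd stood at the 99.9 percentile of all tested genes, and its log2 difference was 0.09 (SE 0.52, limma adjusted p = 0.992).

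Perilipin 1, the main droplet coat of fat cells, was at 60.5, 89.0 and 131 FPKM in WT1, WT2 and WT3 and at 41.9, 204 and 61.7 FPKM in Het1, Het2 and Het3. The libraries stood in the same order as for Retn, Cfd and Lipe, with overlapping groups and a log2 difference of -0.13 (SE 0.60, limma adjusted p = 0.988). Cidec, which helps small droplets merge into large ones, was at 152, 285 and 377 FPKM in WT1, WT2 and WT3 and at 118, 397 and 151 FPKM in Het1, Het2 and Het3. For Cidec, Het3 was just below WT1, the groups overlapped, and the log2 difference was -0.40 (SE 0.53, limma adjusted p = 0.951).

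Plin4, a perilipin that is also found in muscle, varied least. It was at 95.1, 85.1 and 93.7 FPKM in WT1, WT2 and WT3 and at 89.1, 119 and 73.0 FPKM in Het1, Het2 and Het3. The highest library held 1.63 times the level of the lowest, where Plin1 had a factor of 4.87 and Cidec one of 3.38. Group means were 91.3 ± 5.45 and 93.6 ± 23.2 FPKM (SD, n = 3), with a log2 difference of 0.01 (SE 0.20, limma adjusted p = 0.998). Its 95% interval, -0.46 to 0.48, was the narrowest of the 10 and spans folds from 0.725 to 1.40. Plin4 (ENSMUSG00000002831) lies on chromosome 17, 56100591 to 56109803, on the minus strand. Of its exonic bases 17 overlap Hdgfl2 on the other strand, which was at 13.4 to 17.3 FPKM.

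Fabp4 RNA was at 202, 343 and 496 FPKM in WT1, WT2 and WT3 and at 108, 543 and 178 FPKM in Het1, Het2 and Het3. Het1 and Het3 were below all wild-type libraries and Het2 above them. The log2 difference of -0.57 (SE 0.63, 95% interval -2.09 to 0.94, limma adjusted p = 0.938) had the smallest p of the 10. Fabp4 is also made by capillary endothelial cells and macrophages. The summed level of 8 endothelial markers was 740 to 830.0 FPKM in wild type and 267 to 788 FPKM in heterozygotes, and was lowest in Het2, where Fabp4 was highest. Pecam1 made up much of this sum, with 72.0 FPKM in Het2 and 352 to 424 FPKM in the other libraries. Kdr, from the same list, was highest in Het2, at 14.6 FPKM, and Emcn and Cldn5 were lowest in other libraries. Their part in the level of Fabp4 was not tested.

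Of the lipases, Pnpla2 was at 198, 322 and 406 FPKM in WT1, WT2 and WT3 and at 123, 481 and 188 FPKM in Het1, Het2 and Het3. Here Het1 and Het3 lay below, and Het2 above, all wild-type values, and the log2 difference was -0.40 (SE 0.53, limma adjusted p = 0.951). Lipe was at 26.6, 40.1 and 52.7 FPKM in WT1, WT2 and WT3 and at 19.8, 113 and 27.9 FPKM in Het1, Het2 and Het3. Het3 lay among the wild-type values, and the log2 difference was 0.06 (SE 0.64, limma adjusted p = 0.996). Over 918 bases the exons of Lipe overlap the antisense gene 4732471J01Rik, listed at 0.177 to 0.681 FPKM. The kit is not described as keeping strand, so reads there cannot be told apart.

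None of the members passed the threshold. With limma on log2(FPKM + 1), 0 of 10 had an adjusted p under 0.05, and so had 0% of the 12620 tested genes. At an unadjusted p under 0.05 the count was also 0 of 10, against 6.5% of all tested genes. Limma voom on recovered reads called 0 of 10 as well, and 0 of 10 had an unadjusted p under 0.05 there, against 6.46%. The groups overlapped for 10 of 10 members, while they did not overlap for 12.9% of all tested genes. The exact two-sided permutation p of the members ranged from 0.5 to 1, where 0.1 is the smallest that 3 against 3 allows. A log2 difference below 0 was found for 6 of 10 members and for 46.9% of all tested genes. The members' median was -0.21 and that of all tested genes 0.01.

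The spread between libraries of 1 group was large. The within-group SD of the 9 members other than Plin4 ranked between the 96.4 and the 99.9 percentile of all tested genes, and that of Plin4 at the 69.2 percentile. Intervals of this width hold folds well below and above 1 (0.315 to 1.89 for Adipoq), so the result does not show equal levels.

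Without Het2 the members' median log2 difference was -0.86, and 10 of 10 members were below 0, as were 43.4% of all tested genes. Adipoq was at -0.93, Fabp4 at -1.23, Pnpla2 at -0.96 and Lep at -1.34, and 0 of 10 passed (smallest limma adjusted p = 0.312). An unadjusted p under 0.05 was reached by 5 members, Adipoq, Plin1, Fabp4, Cidec and Pnpla2, against 14% of all tested genes. Het2 was the highest library for 10 of 10 members, so leaving it out had to lower their heterozygote means. These 5 members also varied together, so they are not separate observations. Without Het1, the lowest library for 9 members, the median was 0.18, with 2 of 10 members below 0 against 48.2% of all tested genes. It was 0.06 without WT3 and 0.04 without Het3. Leaving out any of the 6 libraries called 0 of 10 members, and at most 0.00792% of all tested genes.

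**Figure D2:**
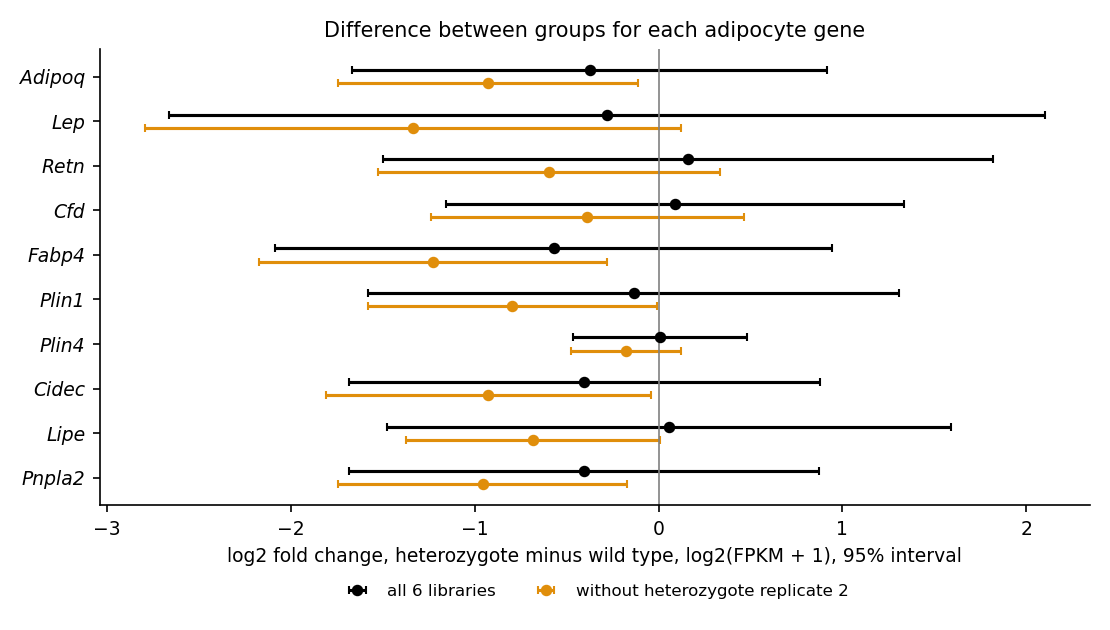
Log2 fold change of each gene, heterozygote minus wild type on the log2(FPKM + 1) scale, with limma's 95% interval, for all 6 libraries (black) and without heterozygote replicate 2 (orange). All 10 black intervals include 0, and all 10 orange points lie below 0, with 5 intervals that do not include it.

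The members varied together across libraries, apart from Lep and Plin4. Over the 6 libraries, Pearson's r of log2(FPKM + 1) was 0.878 to 0.998 for the 28 pairs of the other 8 members, highest for Fabp4 with Pnpla2. These values describe 6 points that share their libraries, and Het2 is the top of every pair. Lep had r of 0.668 to 0.842 with the other members and was most like Retn. Plin4 had r of 0.564 to 0.775 and was most like Lep. Adipoq, Fabp4, Cidec and Pnpla2 ordered the 6 libraries in 1 way, and Retn, Cfd, Plin1 and Lipe in another, which differs by the exchange of WT1 and Het3.

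Lep and Plin4 again varied most when (FPKM + 1) of each gene was divided by the geometric mean of the other 9 in the same library. This lessens what most of the members share. Lep was at 0.112, 0.0230 and 0.0648 of the others in WT1, WT2 and WT3 and at 0.0314, 0.101 and 0.0423 in Het1, Het2 and Het3. WT1 and WT2 thus differed by a factor of 4.87 in relative leptin, although WT2 had the more Adipoq, Plin1 and Cidec. Plin4 was at 0.992, 0.696 and 0.471 of the others in WT1, WT2 and WT3 and at 1.51, 0.411 and 0.821 in Het1, Het2 and Het3, highest in Het1 and lowest in Het2. A level as flat as that of Plin4 has to run opposite to the others on this scale, so its range here is not a separate result. The remaining 8 varied by factors of 1.24 (Plin1) to 1.75 (Fabp4). Of the 10, Fabp4 alone had groups that did not overlap on this scale, with geometric means of 2.80 in wild type and 2.08 in heterozygotes. Set against the members in the same way, 0.935% of all tested genes did not overlap, where 12.9% did not when undivided. Most of those genes varied less closely with the members, and dividing by the members adds the members' own spread to them. The 0.935% is therefore not a like background for Fabp4.

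**Figure D3:**
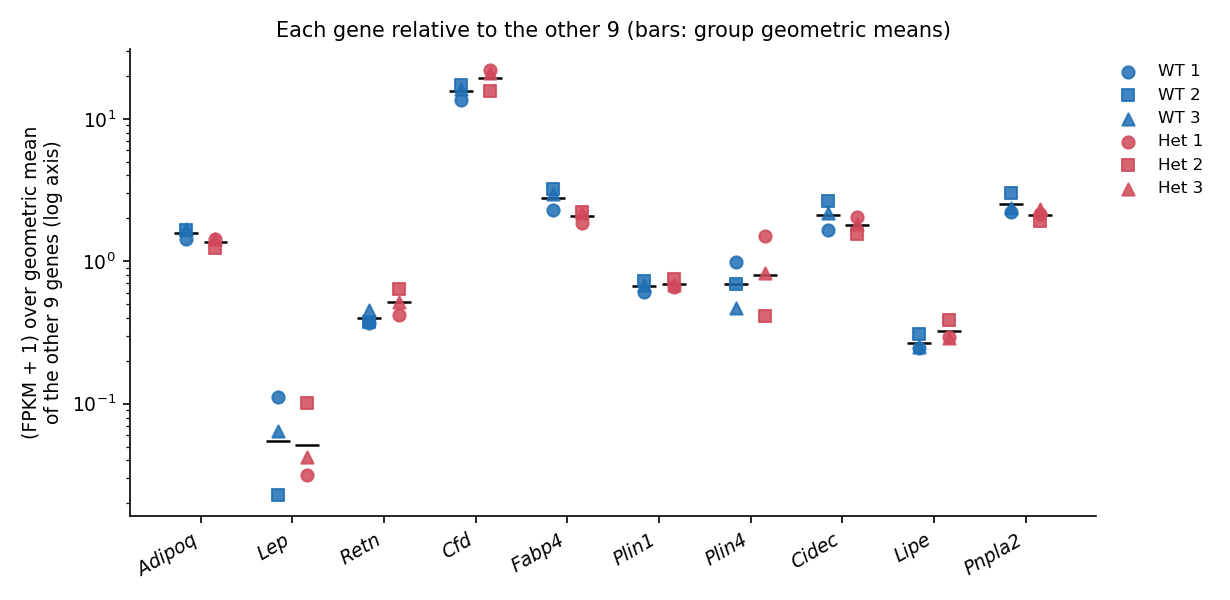
(FPKM + 1) of each gene divided by the geometric mean of the same value for the other 9 genes, on a log axis, with 1 point per library and group geometric means as bars. Lep spans a factor of 4.87 and Plin4 one of 3.67, while the other genes span 1.75 or less.

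Set against Adipoq within each library, a comparison added after the values were seen, 4 of the 9 other members were higher in all heterozygotes than in all wild-type libraries. Retn was at 0.289, 0.259 and 0.303 of Adipoq in WT1, WT2 and WT3 and at 0.324, 0.548 and 0.391 in Het1, Het2 and Het3. Cfd was at 7.57, 8.34 and 7.66 times Adipoq in WT1, WT2 and WT3 and at 11.7, 9.73 and 11.2 times in Het1, Het2 and Het3. The means of this ratio were 7.86 ± 0.421 and 10.9 ± 1.03 (SD, n = 3), higher in heterozygotes by a factor of 1.39. For Lipe the ratio was 0.197 ± 0.0194 in wild type and 0.270 ± 0.0679 in heterozygotes, and for Plin1 0.457 ± 0.0190 and 0.542 ± 0.0755.

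For Fabp4, Pnpla2, Cidec, Lep and Plin4 the ratio to Adipoq overlapped between groups. Pnpla2 was at 1.52 ± 0.186 and 1.49 ± 0.0487 times Adipoq, and Cidec at 1.31 ± 0.196 and 1.28 ± 0.0861 times (SD, n = 3). The exact two-sided permutation p of the 4 ratios that did not overlap was 0.1, the smallest that 3 against 3 allows, so none could pass. Among the 12523 tested genes above 0 in every library, the ratio to Adipoq did not overlap for 2.17% (1.96% higher in heterozygotes). Most of that background varied less closely with the members: 7.38% of tested non-members had r above 0.9 with the members' mean log2 profile.

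Over all pairs of the 12523 genes, 14.3% of ratios did not overlap between groups. Of the 45 ratios between members 14 did not, a larger share. In 13 of these 14, Adipoq, Fabp4, Pnpla2 or Cidec was the lower partner in heterozygotes and Retn, Cfd, Plin1 or Lipe the higher. In the other, Lipe was higher against Plin1. The pairs share genes and libraries, and most members vary together, so the pairs of all genes are not a like background. Lipe was at 0.125 to 0.134 of Pnpla2 in wild type and at 0.149 to 0.235 in heterozygotes, so the later lipase was nearer to the first in each heterozygote library.

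**Figure D4:**
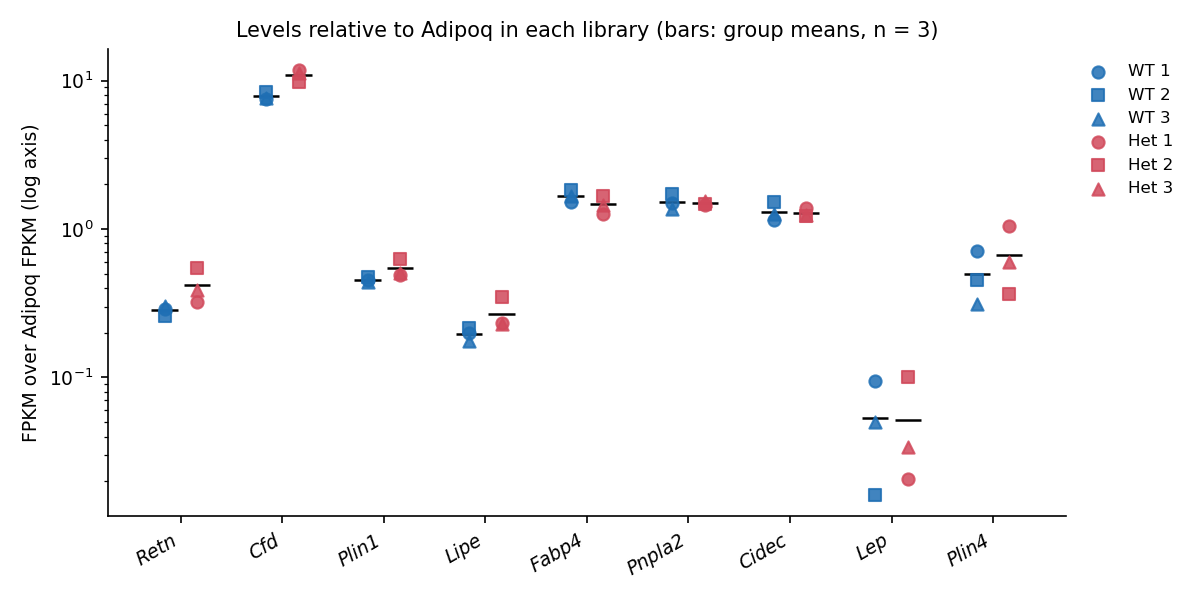
FPKM of the 9 other genes divided by Adipoq FPKM of the same library, on a log axis, with 1 point per library and group means as bars (n = 3). For Retn, Cfd, Plin1 and Lipe every heterozygote point lies above every wild-type point, and for the other 5 genes the groups overlap.

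The order of the members by level depends on the length by which reads are divided. Each deposited value times the merged length of all annotated exons of the gene gave whole reads for the 10 members in 6 of 6 libraries, within 0.1 reads. For Fabp4 the merged exons form 1 block of 4489 bases that covers the whole gene, introns included, while its principal transcript is 896 bases long. Per length of the principal transcript, the mean of Fabp4 over 6 libraries was 1561 in place of 311.5 FPKM, a factor of 5.01.

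On the deposited scale Cfd was above Fabp4 in 6 of 6 libraries, by a factor of 5.55 in the mean, and the ranges did not overlap. Per principal transcript the factor was 1.11, with Cfd above in 3 of 6 libraries, so that these neighbours did not differ beyond their spread. Below them came Pnpla2 (481), Cidec (266), Adipoq (205), Plin1 (162), Retn (99.5), Plin4 (92.8), Lipe (76.1) and Lep (11.9), as mean FPKM per principal transcript. The ranges of all neighbours in this order overlapped over the 6 libraries. Within a library, the order from Fabp4 through Pnpla2, Cidec, Adipoq and Plin1 to Retn held in 6 of 6, and Lipe was above Lep in 6 of 6. Retn was above Plin4 in 2 of 6.

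Other genes of the fat cell were read from lists chosen by function. Of 18 tested lipid droplet proteins and lipases other than the members, 0 were called in either direction. A log2 difference below 0 was found for 15 of them, against 46.9% of all tested genes. The median was -0.25, and 0.04 without Het1. Of the 18, 12 had r above 0.9 with the members' mean log2 profile, so they are not separate observations. The 3 most abundant of the 18 were Dgat2, Cidea and Lpl. Dgat2, which makes triglyceride, was at 38.9 to 625 FPKM over the libraries. The droplet protein Cidea was at 19.1 to 227 FPKM, and lipoprotein lipase (Lpl) at 46.3 to 196.8 FPKM. Each was lowest in Het1 and highest in Het2, as 9 of the 10 members were. Of 18 other genes enriched in adipocytes 0 were called, with a median of -0.27. Gpd1, which makes glycerol phosphate for triglyceride, was at 39.3 FPKM in Het1 and 1008 FPKM in Het2, a factor of 25.7. The carbonic anhydrase Car3 was at 397 to 1494.6 FPKM, lowest in Het1 but highest in WT3. Cavin1, a caveolar coat protein that smooth muscle also makes, was instead lowest in Het2, at 272 FPKM.

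The transcription factors of fat cells were mixed. Of 12 tested, 0 were called, the median log2 difference was -0.05, and 6 had r above 0.9 with the members' mean log2 profile over the 6 libraries. The most abundant were Cebpa at 29.9 to 145.2 FPKM, Srebf1 at 22.1 to 163.6 FPKM and Mlxipl at 4.88 to 82.9 FPKM, each lowest in Het1 and highest in Het2. Cebpd and Zfp423 were instead lowest in Het2, at 13.1 and 5.89 FPKM, and Klf15, Rxra and Ebf1 spanned factors of only 1.19, 1.17 and 1.34. Of 13 genes through which hormones control lipolysis 0 were called (median -0.10). Prkar2b, a regulatory subunit of protein kinase A, ranged from 17.3 to 116.0 FPKM and the insulin-signalling kinase Akt2 from 32.0 to 57.3 FPKM, both highest in Het2. The natriuretic peptide receptor Npr1 was lowest there, at 38.8 FPKM.

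Other secreted proteins that adipocytes can make varied little in sum. Of 15 tested 0 were called, the median was -0.15, and the sum of the list lay between 569 and 650.5 FPKM in the 6 libraries. Retinol-binding protein Rbp4 was at 101.0 to 131.4 FPKM, while the protease Adamts1 was lowest in Het2, at 32.4 FPKM. Serpina12 was listed at 0 in all libraries. Chemerin (Rarres2) was the 1 gene of the list whose groups did not overlap, at 28.8, 29.6 and 29.9 FPKM in WT1, WT2 and WT3 and at 32.1, 31.0 and 34.5 FPKM in Het1, Het2 and Het3, higher in all heterozygotes, as were 7.8% of all tested genes. Of 6 adipokine receptors 0 were called (median -0.15), and 1 was lower in all heterozygotes, against 5.12% of all tested genes. That was the chemerin receptor Cmklr1, at 48.9, 62.4 and 64.5 FPKM in WT1, WT2 and WT3 and at 46.9, 22.0 and 34.1 FPKM in Het1, Het2 and Het3 (log2 difference -0.81, SE 0.28, limma adjusted p = 0.692). The adiponectin receptor Adipor2 was at 28.8 to 89.8 FPKM, lowest in Het1 and highest in Het2, and Cap1 was lowest in Het2, at 76.1 FPKM.

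Brown adipocyte markers had a wider range in sum than the members, a factor of 12.3 against 3.44. The summed level of the brown markers, over 10 genes, was 232 to 1001 FPKM in wild type and 92.5 to 1138 FPKM in heterozygotes. It was lowest and highest in the same libraries as the sum of the members. Each sum leaned on 1 gene. In Het2, Ucp1 gave 790.3 of the 1138 FPKM of the brown markers, and Cfd 3161 of the 5554 FPKM of the members. Single members ranged differently from their sum, with a factor of 3.17 for Cfd and 18.6 for Lep. Ucp1, the uncoupling protein that defines brown fat, was at 117, 682 and 489 FPKM in WT1, WT2 and WT3 and at 34.9, 790.3 and 153 FPKM in Het1, Het2 and Het3. So these libraries carried brown as well as white markers, and Adipoq, Plin1, Cidec, Fabp4, Lipe and Pnpla2 are known from both kinds of fat cell. Of the 9 tested brown markers 0 were called (median log2 difference -0.71). Not all varied with the members: Prdm16 was highest in Het1, at 18.1 FPKM, Dio2 was lowest in Het2, at 6.11 FPKM, and Ppargc1a spanned a factor of 2.28. Dio2 and Fabp3 were the 2 with an unadjusted p under 0.05, both lower, against 2.44% of all tested genes in that direction.

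Ucp1 did not keep a fixed ratio to Adipoq, which is itself known from both kinds of fat cell. Ucp1 was at 0.881, 3.65 and 1.64 times Adipoq in WT1, WT2 and WT3 and at 0.409, 2.43 and 1.25 times in Het1, Het2 and Het3. The ratio of Cidea to Adipoq was also lowest in Het1 (0.223) and highest in WT2 (0.898). That of Slc25a35 to Adipoq spanned only 0.0538 to 0.0667. Leptin, which is made mainly by white fat cells, was at 0.0940, 0.0161 and 0.0499 of Adipoq in WT1, WT2 and WT3 and at 0.0207, 0.101 and 0.0339 in Het1, Het2 and Het3. WT2 had the highest ratio of Ucp1 and the lowest of Lep. Het2 was high in both ratios and Het1 low in both, so 1 order did not hold over all 6 libraries.

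**Figure D5:**
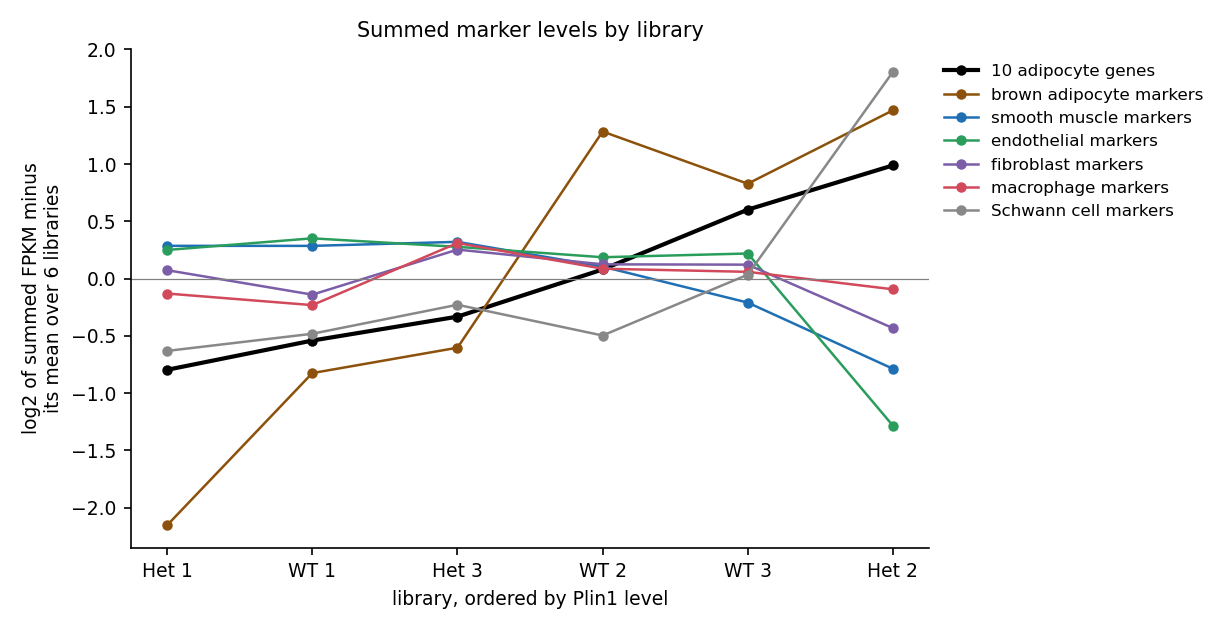
Log2 of the summed FPKM of each marker list minus its mean over the 6 libraries, with libraries ordered by Plin1 from left to right. The sums of the 10 adipocyte genes and of the brown markers are highest in Het 2, where those of the smooth muscle, endothelial and fibroblast markers are lowest.

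Smooth muscle, endothelial and fibroblast markers were lowest in Het2 in sum. All 8 smooth muscle markers were tested, and their sum was 7112 to 10023 FPKM in wild type and 4766 to 10270.0 FPKM in heterozygotes. The actin Acta2 made up most of this sum, at 3701 to 8367 FPKM over all libraries, and Myh11 was at 612 to 1166 FPKM. Levels in the list differed widely: Tagln was at 2.12 to 4.29 FPKM, Myocd at 5.36 to 19.2 FPKM and Smtn at 122 to 218 FPKM. The cause of the low value of Tagln was not tested. The sum of 8 fibroblast markers was 812 to 976 FPKM in wild type and 663 to 1067 FPKM in heterozygotes. Of these, Pi16, Cd34, Ly6a, Lum and Dcn were lowest in Het2. Pdgfra and Dpp4 were instead lowest in WT1, at 14.2 and 0.597 FPKM, and Dlk1 was highest in Het2, at 0.982 FPKM. Macrophage markers, 8 in number, summed to 273 to 341 FPKM in wild type and 293 to 398 FPKM in heterozygotes. Schwann cell markers were at 14.3 to 20.7 FPKM in wild type, and in heterozygotes at 13.1 to 70.7 FPKM with the top again in Het2. Lymphocyte and skeletal muscle markers summed to at most 10.9 and 5.20 FPKM. The part of these cell types in the members' values was not tested.

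Genes whose pattern was most like that of the members were found from the members' mean log2 profile over the 6 libraries. The 8 non-members with the highest Pearson's r, predicted genes and pseudogenes left out, were Srxn1, Syt12, Taco1, Mtch2, Cdo1, Chpt1, Slc25a35 and Ldha (r of 0.996 to 0.999). Cdo1, which oxidises cysteine, was at 115 FPKM in Het1 and 627 FPKM in Het2, and the lactate dehydrogenase chain Ldha at 68.9 and 274 FPKM. High values were common in these 6 libraries: 930 of 12610 tested non-members (7.38%) had r above 0.9 with the profile and 858 (6.80%) r below -0.9. Plin1 was the member nearest the profile (r = 0.995) and Plin4 the farthest (r = 0.706).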

How the data were processed

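Poly(A)-selected RNA of 6 aortic samples was sequenced by the submitters. The files hold FPKM values deposited by the authors, 1 file per sample; the unit was read from the values, and whether reads or fragments were counted is not stated. HISAT2 2.1.0, Bowtie2 2.2.3, TopHat2 and GRCm38 are listed, without roles, per the submitters' processing notes, and no counting tool or annotation is named. Groups and replicate numbers come from the sample titles; the heterozygote files' own headers carry other numbers (titles 1, 2 and 3 have 3, 1 and 2).

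Deposited FPKM times the merged exon length in GENCODE release M21 gave whole reads for 94.5% to 94.9% of low genes (tolerance 0.01 reads), which gave each library's depth. Of 29752 identifiers 29687 were in that annotation. The principal transcript is its APPRIS principal isoform, the longest of ties.

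Tested were the 12620 genes that reached 1 FPKM in 3 or more libraries, all members among them. The test was limma 3.58.1 (R 4.3.3) with a mean-variance trend on log2(FPKM + 1), 6 libraries, no covariate, Benjamini-Hochberg adjustment and a threshold of 0.05. This scale understates differences of low genes. Alternatives were a pseudocount of 0.1, no filter, quantile normalization, a replicate block, no trend, leaving out each library and, added after seeing the data, limma voom on the recovered reads. The procedure was run on simulated data with independent noise for each gene and library, which lack the variation that the members share. Python 3.11.15, numpy 2.4.6, pandas 2.3.3, scipy 1.17.1 and matplotlib 3.10.9 were used.

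The members and gene lists were chosen with earlier results of these data known. By rule, genes named from a list come from its 3 tested genes of highest mean level (1 such gene is not reported here), and 8 genes are named as most like the members' profile. Other genes named from the lists, and the ratios between members, were added after their values were seen.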

Additional observations from a re-analysis of the deposited data

How the results depend on the processing

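No alternative called a member. Leaving out 1 library called 0 to 1 genes, none a member. The members' median log2 difference was -0.86 to 0.18 when 1 library was left out, and -0.26 to -0.18 under the other alternatives. The sign of a single member turned in 16 of 60 fits that left out a library: values ran from -0.928 to 0.0297 for Adipoq, -1.34 to 0.47 for Lep, -0.59 to 0.73 for Retn, -0.39 to 0.44 for Cfd, -0.80 to 0.33 for Plin1, -0.18 to 0.17 for Plin4, -0.68 to 0.54 for Lipe and -0.957 to 0.0230 for Pnpla2, with a smallest limma adjusted p of 0.312. Fabp4 and Cidec were below 0 in each of these fits. Of 60 member values under the other alternatives 1 turned its sign: Cfd was at -0.0413 with quantile normalization, against 0.09. The cause was not tested.

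By the numbers of the titles, deviations of same-numbered libraries correlated at 0.508, -0.0877 and -0.342. WT2 and WT3 were most like heterozygotes of another number. So few correlations cannot exclude pairing, and a block by the numbers in the headers was not fitted. With the replicate block of the titles 0 genes were called, 738 had an unadjusted p under 0.05 in place of 820, and the members' median was -0.21. The SE rose for Lep (0.99 to 1.15) and Plin4 (0.20 to 0.21) and fell for the other members (0.63 to 0.47 for Fabp4). Each member had 108 or more reads in every library.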
